A study of Mus musculus with 8 samples.

Results

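Fibronectin, the thrombospondins and the matricellular proteins of bone stroma were followed through 7 genes, Fn1, Thbs1, Thbs2, Thbs3, Sparc, Tnc and Postn. The genes were chosen by name for what they encode, with earlier results of these data known. They are 7 of the 53465 gene identifiers in the count table, and each had counts in all 8 samples. The cells sequenced were mesenchymal stem cells (MSCs), stromal cells that can form bone, fat and cartilage, which the labels call bone-marrow MSCs and the study isolated from crushed hind limb bones of wild-type male C57BL/6N mice aged 3 to 5 months. In the hypoxia group cells were kept at 2% O2 and in the normoxia group at 21% O2, both with 5% CO2, with 4 samples each. By the study's methods, all cells had been cultured with bone fragments at low oxygen and sorted on day 12 as CD45-/Ter-119-/Sca-1+/CD140a+ cells before the sorted population was divided between the oxygen levels. The sorted cells were then cultured for 7 days at either level. Samples are not tied to animals in the labels, so the p-values refer to these samples and not to animals. The main test, limma-trend, draws the variance of each gene towards that of genes of similar level. Its p-values thus do not rest on a gene's own spread alone.

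Fibronectin is a secreted glycoprotein that cells pull into fibrils through integrins, and other matrix proteins, collagen included, are laid down on these fibrils. Thrombospondins, SPARC, tenascin C and periostin are matricellular proteins: they sit in the matrix and tune adhesion, protease activity and growth factor signalling more than they bear load. In bone they are made by osteoblasts, periosteal cells and marrow stroma, and SPARC (osteonectin) is among the main non-collagen proteins of mineralised bone.

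Total counts ran from 12898291 to 25132141 per sample, and hypoxia replicate 1 was the deepest. Levels are given as CPM (counts scaled to library size) with TMM factors, and changes as normoxia minus hypoxia on the log2 CPM scale. Marker sums and levels per kilobase were instead taken from total counts without TMM factors. Of the MSC markers, all 8 were measured, with a summed level of 2722 to 3545 CPM in hypoxia and 2821 to 3350 CPM in normoxia. Within this sum Cd44 and Nt5e were called higher in normoxia (changes 0.72 and 0.59) and Eng lower (-0.27). Over all tested genes 18.0% were called higher and 16.5% lower. With the replicate number as a block 3 of the MSC markers were higher and 5 lower, where 23.3% of all tested genes were higher and 22.7% lower. Chondrocyte markers, mostly Comp, summed to more, at 4669 to 6409 CPM in hypoxia and 4085 to 4932 CPM in normoxia. Macrophage and other blood markers were present at 583 to 1243 CPM in hypoxia and 706 to 1374 CPM in normoxia, although the sort selects against CD45. This sum hides opposite changes. Lyz2, the highest of these 11 markers, rose by 0.56 (limma-trend adjusted p = 0.022), while the median change of the 11 was -0.32. With the replicate number as a block, 7 of them were lower and 1 higher, beside 22.7% and 23.3% of all tested genes. The 5 endothelial markers summed to at most 2.57 CPM, with Emcn at 0 throughout, and 5 of the 6 erythroid markers had no count in any sample. Summed levels that differed between the groups without overlap were those of osteoblast markers (48224 to 56788 CPM in hypoxia, 31574 to 34116 CPM in normoxia, nearly all of it Col1a1) and of smooth muscle and myofibroblast markers (3358 to 4396 and 2679 to 3066 CPM, mostly Acta2). Their part in the changes of the 7 genes was not tested. In bulk samples fewer cells of a type and less RNA per cell cannot be told apart.

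In normoxia Fn1 and Tnc fell, Thbs2 rose, and Thbs1, Thbs3, Sparc and Postn did not pass the test. Thus 3 of the 7 genes were called by limma-trend at an adjusted p-value of 0.05, where 34.6% of all 14369 tested genes were called (18.0% higher and 16.5% lower in normoxia). Fn1 and Tnc, 2 of the 7 genes, had no overlap between hypoxia and normoxia values, as had 32.6% of all tested genes (17.1% higher and 15.5% lower). Neither share sets the 7 genes apart from the table as a whole, and what follows describes the genes one by one.

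**Figure D1:**
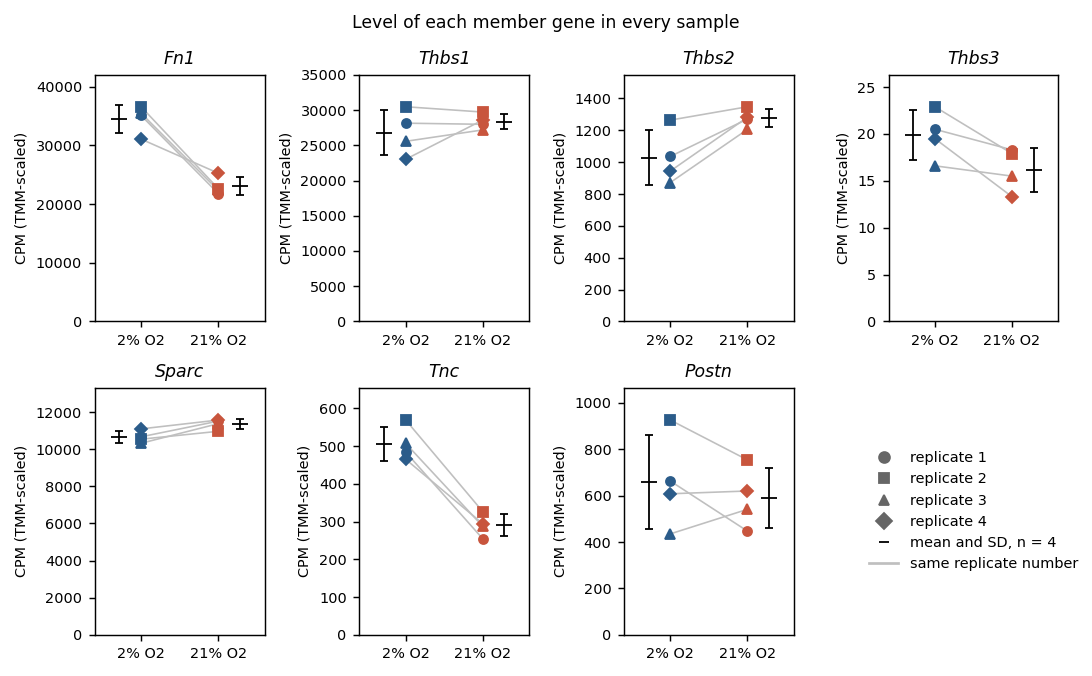
Level of each gene in every sample, in TMM-scaled CPM on a linear axis from 0, at 2% O2 (hypoxia, blue) and 21% O2 (normoxia, red). Shapes and grey lines mark the replicate number, and black bars show the mean and SD of 4 samples. The Fn1 and Tnc groups do not overlap, Thbs2 has its 4 normoxia values within a narrow range, and Postn is the most scattered.

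Promoter sequence was available for 5 of the 7 genes from RefSeq on GRCm38.p6. It is shown for Tnc and Thbs2, which changed in opposite directions, and for Postn. Each line gives the 250 bases before the start site, read towards the gene, with matches to the searched motifs in capitals. These are TATAAA (the TATA box) or its reverse TTTATA in all 3, and GGGCGG (the GC box) in Tnc.
Tnc, chr4:64047016-64047265, minus strand: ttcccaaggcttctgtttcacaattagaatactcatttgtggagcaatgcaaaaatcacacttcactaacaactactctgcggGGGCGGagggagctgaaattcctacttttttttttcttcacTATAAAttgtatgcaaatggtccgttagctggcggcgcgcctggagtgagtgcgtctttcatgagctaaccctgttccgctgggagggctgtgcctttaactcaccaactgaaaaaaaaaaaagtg
Thbs2, chr17:14694263-14694512, minus strand: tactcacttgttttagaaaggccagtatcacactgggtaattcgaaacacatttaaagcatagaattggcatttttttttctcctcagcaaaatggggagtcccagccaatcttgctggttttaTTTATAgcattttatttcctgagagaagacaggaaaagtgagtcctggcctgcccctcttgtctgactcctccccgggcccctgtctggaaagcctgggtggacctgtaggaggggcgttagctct
Postn, chr3:54360857-54361106, plus strand: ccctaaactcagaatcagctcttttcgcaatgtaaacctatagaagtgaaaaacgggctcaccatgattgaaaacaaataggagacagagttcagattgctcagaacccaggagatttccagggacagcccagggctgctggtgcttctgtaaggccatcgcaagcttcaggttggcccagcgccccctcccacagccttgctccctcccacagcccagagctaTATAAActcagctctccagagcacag
The match in Postn lay 26 to 21 bases before the start, and those in Tnc and Thbs2 both lay 126 to 121 bases before it. Tnc also had GGGCGG at 167 to 162 bases before the start. Tnc and Postn each have a further RefSeq window, which makes 7 windows for the 5 genes, and TATAAA in either orientation occurred in 4 of them and in 12.4% of all 32851 windows. GGGCGG occurred in 3 of the 7 and in 32.7% of all. The Tnc windows overlap and hold the same sites, so the distinct sites number 3 for TATAAA and 2 for GGGCGG. The core letters of the hypoxia response element, ACGTG and GCGTG, occurred in none of the 7 windows in either orientation, and at least 1 of them occurred in 38.6% of all windows. GGAATG (TEAD) and TGANTCA (AP-1) were likewise not found in the 7, and occurred in 12.6% and 6.75% of all windows. These matches describe letters in these windows only.

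Fn1 (ENSMUSG00000026193, chr1:71585520-71653200, minus strand, GRCm38) encodes fibronectin. Its level in the hypoxia samples was 35113, 36605, 35496 and 31086 CPM for replicates 1 to 4, and in the normoxia samples 21803, 22643, 22356 and 25277 CPM. All normoxia values lay below all hypoxia values, and replicate 4 had the lowest hypoxia and the highest normoxia value. Fn1 fell by 0.59 on the log2 scale (SE 0.14, limma-trend adjusted p = 0.0078), a level 0.666 times that in hypoxia, from a mean log2 CPM of 15.07 ± 0.10 to 14.49 ± 0.0943 (SD, n = 4). It was lower in 4 of 4 same-numbered pairs, by differences of -0.69, -0.69, -0.67 and -0.30 for replicates 1 to 4. Fn1 was the third most counted gene of the table, after Col1a1 and Col1a2, and its share of all counts went from 3.35% ± 0.19 to 2.37% ± 0.16. Without a filter on low counts, the same change had an SE of 0.25 and an adjusted p of 0.13 in limma-trend.

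Thbs1 (ENSMUSG00000040152, chr2:118111876-118127133, plus strand) encodes thrombospondin 1, a trimer with type 1 repeats that binds CD36 and CD47 and can activate latent TGF-beta. It stood at 28137, 30469, 25562 and 23018 CPM in hypoxia and at 27975, 29713, 27183 and 28586 CPM in normoxia. The normoxia values lay inside the hypoxia range, and the same-numbered pairs went either way, 2 higher and 2 lower. The log2 change of 0.089 (95% interval -0.23 to 0.41, limma-trend adjusted p = 0.68) was within the spread of the hypoxia samples. Thbs1 passed the threshold under 0 of 19 alternatives. As the fourth most counted gene, it held 2.59% ± 0.28 of all counts in hypoxia and 2.92% ± 0.11 in normoxia.

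Thbs2 (ENSMUSG00000023885, chr17:14665500-14694235, minus strand) encodes thrombospondin 2, which has the same domain order as thrombospondin 1 but does not activate TGF-beta, and which is known from mouse marrow for limiting MSC numbers. Its level was 1036, 1264, 872 and 944 CPM in hypoxia and 1271, 1348, 1206 and 1282 CPM in normoxia. Hypoxia replicate 2 was above normoxia replicate 3, so the groups overlapped by 1 sample on either side, while all 4 same-numbered pairs were higher in normoxia, by 0.29, 0.093, 0.47 and 0.44. Thbs2 rose by 0.32 (SE 0.1, limma-trend adjusted p = 0.025), from a mean log2 CPM of 9.99 ± 0.23 to 10.32 ± 0.0656 (SD, n = 4). This call was lost without any of 5 samples in turn, with adjusted p-values of 0.085 and 0.073 without hypoxia replicates 3 and 4, and 0.052, 0.078 and 0.063 without normoxia replicates 1, 2 and 4. With the replicate number as a block the adjusted p was 5.6e-05.

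Thbs3 (ENSMUSG00000028047, chr3:89215180-89226837, plus strand) encodes thrombospondin 3, a pentamer without type 1 repeats that is found in developing bone and cartilage. It was the scarcest of the 7 genes, with 176 to 491 counts per sample. Its level was 20.5, 22.9, 16.6 and 19.5 CPM in hypoxia and 18.3, 17.9, 15.5 and 13.3 CPM in normoxia. The groups overlapped, and all 4 pairs were lower in normoxia. The log2 change was -0.29 (95% interval -0.56 to -0.019, limma-trend adjusted p = 0.091), which passed the threshold with the replicate block (adjusted p = 0.012), with the block and GC and length correction together (change -0.22, adjusted p = 0.046), and without hypoxia replicate 3 (adjusted p = 0.046). Thbs3 shares 318 bases of exon with Mtx1 on the other strand, which had 1805 counts over the 8 samples against 2128 for Thbs3. Whether counting used strand is not stated, so reads from these bases cannot be told apart.

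Sparc (ENSMUSG00000018593, chr11:55394500-55423183, minus strand) encodes SPARC, a collagen-binding glycoprotein that helps procollagen leave the cell surface and is deposited in bone. It was measured at 10668, 10540, 10320 and 11095 CPM in hypoxia and 11514, 10965, 11377 and 11572 CPM in normoxia. The ranges overlapped only through hypoxia replicate 4 and normoxia replicate 2, and all 4 pairs were higher in normoxia, by 0.11, 0.057, 0.14 and 0.061. The log2 change was 0.092 (95% interval -0.13 to 0.31, limma-trend adjusted p = 0.52). The within-group SD of Sparc, 0.04 on the log2 scale, was among the smallest of the table, as only 0.842% of tested genes had a smaller one and the median was 0.16. The interval is not set by this SD alone, since limma-trend draws the variance towards that of genes of similar level. The SE was 0.1 in limma-trend, 0.054 in limma-voom (adjusted p = 0.22) and 0.05 in DESeq2 (adjusted p = 0.21). As a share of all counts, before TMM scaling, the groups did not overlap: Sparc took 1.00% to 1.10% in hypoxia and 1.13% to 1.19% in normoxia. Fn1, Thbs2 and Tnc had no overlap on this scale either, and the share over all tested genes was not counted for it. With library totals only, the change of Sparc was 0.18 (limma-trend adjusted p = 0.18). The median change of all tested genes was 0.089 in that fit and 0.0049 with TMM factors.

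Tnc (ENSMUSG00000028364, chr4:63959785-64047015, minus strand) encodes tenascin C, a hexameric glycoprotein that weakens adhesion to fibronectin and is made in growing bone, tendon and wounds. Its level was 484, 569, 507 and 465 CPM in hypoxia and 254, 326, 287 and 294 CPM in normoxia. The lowest hypoxia value was thus well above the highest normoxia value. Tnc fell by 0.80 on the log2 scale (SE 0.083, limma-trend adjusted p = 8.2e-05), a level 0.573 times that in hypoxia, from a mean log2 CPM of 8.98 ± 0.13 to 8.18 ± 0.15 (SD, n = 4). It was lower in 4 of 4 pairs, by differences of -0.93, -0.80, -0.82 and -0.66. Ranked from the most negative change, Tnc was number 346 and Fn1 number 873 of 14369 genes. Tnc was the member whose call held under 19 of 19 alternatives, with changes from -0.87 to -0.72.

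Postn (ENSMUSG00000027750, chr3:54361109-54391037, plus strand) encodes periostin, a protein of the periosteum and other stressed connective tissue that binds fibronectin and tenascin C. It was at 663, 926, 435 and 608 CPM in hypoxia and 447, 754, 541 and 620 CPM in normoxia. Replicate 2 was the highest of each group, and the groups covered much the same range. The log2 change was -0.13 (95% interval -0.56 to 0.30, limma-trend adjusted p = 0.65), and the pairs differed by -0.57, -0.30, 0.32 and 0.029. Its within-group SD of 0.39 exceeded that of 85.6% of tested genes. Postn has a GC content of 36.3% in its longest transcript, which only 0.808% of tested genes undercut. With the replicate block and GC and length correction the change was -0.38 (adjusted p = 2.6e-05). The same correction without the block gave the same -0.38, but a limma-trend adjusted p of 0.13. Without hypoxia replicate 2, and with neither block nor correction, the change was 0.052 (adjusted p = 0.85).

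The numbers 1 to 4 appear to pair the samples, so a fit that blocks on these numbers is given beside the first. With the block, 4 of the 7 genes were called (Thbs2 higher, Fn1, Thbs3 and Tnc lower), where 46.0% of tested genes were called (23.3% higher and 22.7% lower). With the block and GC and length correction, 6 of the 7 were called, Thbs2 and Sparc (change 0.16, adjusted p = 0.016) higher and Fn1, Thbs3, Tnc and Postn lower, where 43.2% of 14353 genes were called (21.7% higher and 21.5% lower). Thbs1 remained uncalled in both, with adjusted p-values of 0.41 and 0.46. A true change that runs along with GC content or transcript length would be taken out by this correction too.

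**Figure D2:**
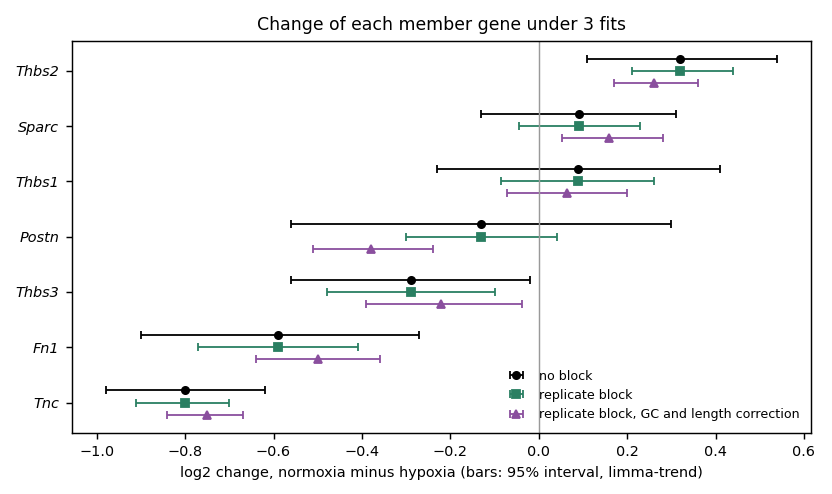
Log2 change (normoxia minus hypoxia, horizontal axis) of each gene in 3 limma-trend fits, with 95% intervals. Black circles are the fit without block, green squares the fit with the replicate block and purple triangles the fit with block and GC and length correction. Tnc, at -0.80, and Fn1, at -0.59, lie left of 0 in all 3 fits, Thbs2 lies right of it, and Postn moves from -0.13 to -0.38 with the correction.

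Together the 7 genes took 7.25%, 7.75%, 7.09% and 6.67% of all counts in the hypoxia samples and 6.47%, 6.8%, 6.52% and 6.96% in the normoxia samples. These totals overlapped. The mean share of Fn1 was smaller and those of Thbs1 and Sparc were larger in normoxia, though the Thbs1 shares overlapped between the groups. Shares carry no TMM factors, and without these the median change of all tested genes was itself 0.089. Per kilobase of merged exon, which allows levels of different genes to be compared, CPM were taken from the total counts without TMM factors, and on this scale Thbs1 was the highest, at 4271 ± 461 CPM per kilobase in hypoxia and 4812 ± 183 in normoxia (SD, n = 4). Fn1 came next in hypoxia, at 2866 ± 165, with Sparc at 2727 ± 121, and these neighbours did not differ beyond their spread. In normoxia Sparc, at 3089 ± 66.8, stood above Fn1, at 2030 ± 136. With the length of the longest transcript instead, Sparc came first in both groups, at 4491 ± 199 and 5087 ± 110, and did not differ from Thbs1, at 4436 ± 479 and 4997 ± 190, beyond the spread. Far below these 3 stood Thbs2, at 142 ± 22.7 in hypoxia and 188 ± 8.5 in normoxia per kilobase of merged exon. Postn stood at 73.2 ± 22.3 and 69.9 ± 15.6, which Tnc matched within its spread in hypoxia (63.1 ± 5.3) but not in normoxia (38.5 ± 4.1). With the longest transcript Postn, at 122 ± 37.2 and 117 ± 26, was above Tnc, at 69 ± 5.8 and 42.1 ± 4.4, without overlap in either group. Thbs3 was the lowest, at 3.99 ± 0.52 and 3.47 ± 0.49.

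**Figure D3:**
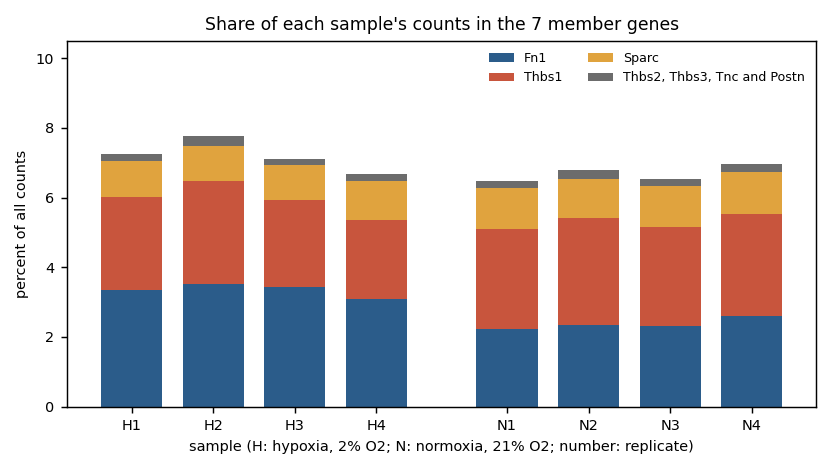
Percentage of each sample's counts (vertical axis, from 0) taken by Fn1, Thbs1, Sparc and the other 4 genes together, stacked, for hypoxia (H) and normoxia (N) replicates 1 to 4. The stacks reach 6.67% to 7.75% in hypoxia and 6.47% to 6.96% in normoxia, and the Fn1 part is smaller in every normoxia sample.

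To ask whether the genes changed differently from each other, the log2 ratio of their counts was taken within each sample, which needs no normalization. An exact permutation test (two-sided, all 70 ways to assign the samples) was run on each of the 21 pairs of genes, and no p below 0.0286 is possible with it. For 10 of the 21 pairs the groups did not overlap and the p took this smallest value, which became 0.06 after adjustment over the 21 pairs, so that 0 pairs passed 0.05 after adjustment and 10 did before. Of these 10, 5 were among the 6 pairs that include Tnc, whose own values did not overlap between the groups. The 21 pairs are built from the same few genes and are not independent. How often ratios of other genes separate without overlap was not counted, so whether 10 of 21 is unusual cannot be told.

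The Fn1 to Thbs1 ratio of raw counts changed sign. It was 0.32, 0.26, 0.47 and 0.43 in hypoxia and -0.36, -0.39, -0.28 and -0.18 in normoxia, a difference of -0.68 (exact permutation p = 0.0286, adjusted 0.06). Every hypoxia sample thus held more counts of Fn1 than of Thbs1, and every normoxia sample the reverse. Counts grow with gene length, and per kilobase the mean of Thbs1 was above that of Fn1 in both groups, by either length. Dividing by length would leave the difference of -0.68 as it is, but not the sign. Fn1 and Tnc, the genes that fell, differed less from each other. Their ratio was 6.09 ± 0.076 in hypoxia and 6.31 ± 0.15 in normoxia (SD, n = 4), higher by 0.22 (exact permutation p = 0.0857, adjusted 0.129) and higher in 4 of 4 pairs. Tnc against Thbs2 was the widest, as the Thbs2 to Tnc ratio went from 1.01 ± 0.16 to 2.14 ± 0.13, a difference of 1.13 (exact permutation p = 0.0286, adjusted 0.06, n = 4).

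Within the thrombospondins, the ratio of Thbs1 to Thbs2 was 4.76, 4.59, 4.87 and 4.61 in hypoxia and 4.46, 4.46, 4.49 and 4.48 in normoxia. It was lower by 0.24 in normoxia without overlap (exact permutation p = 0.0286, adjusted 0.06), and its SD was 0.13 in hypoxia and 0.016 in normoxia. Thbs2 to Thbs3 went from 5.69 ± 0.08 to 6.30 ± 0.2 (exact permutation p = 0.0286, adjusted 0.06, n = 4). Thbs1 and Sparc kept the same mean ratio, 1.32 ± 0.2 and 1.32 ± 0.081, with a difference of -0.003 (exact permutation p = 0.971, n = 4).

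**Figure D4:**
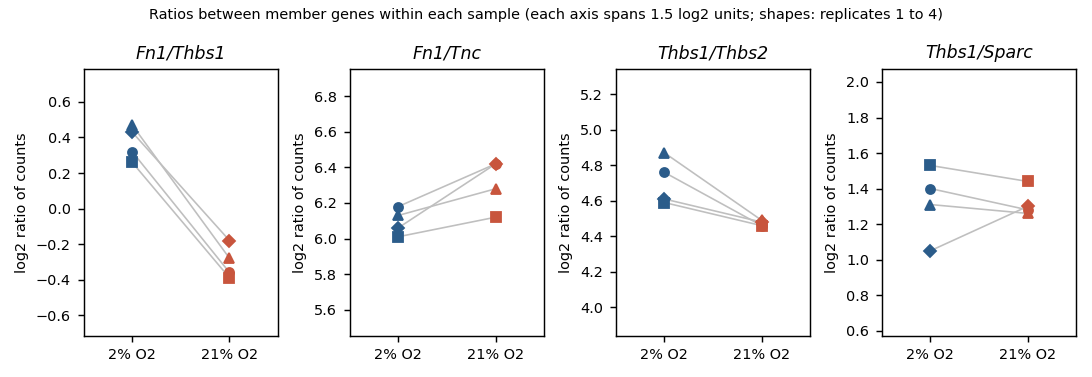
Log2 ratio of counts within each sample for 4 pairs of genes, at 2% O2 (blue) and 21% O2 (red), with shapes for replicates 1 to 4, grey lines between same-numbered samples, and vertical axes of equal span. In counts not divided by gene length, Fn1 to Thbs1 goes from above 0 to below it. Thbs1 to Thbs2 narrows to 4.46 to 4.49 in normoxia, and Thbs1 to Sparc overlaps throughout.

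Likeness of profiles was measured as the root mean square difference in log2 CPM over the 8 samples, after centring each gene on its mean, among 9395 genes with a mean log2 CPM of at least 3. Among the 7 genes themselves, the nearest were Thbs1 and Sparc (0.13), Thbs1 and Thbs2 (0.14) and Fn1 and Tnc (0.15), and the farthest Thbs2 and Tnc (0.58). By the same measure, the spread around the own mean was 0.12 for Thbs1, 0.058 for Sparc, 0.22 for Thbs2, 0.31 for Fn1 and 0.42 for Tnc. The distance between Thbs1 and Sparc was thus no smaller than the spread of either, and reflects flat profiles rather than shared movement. Fn1 and Tnc lay nearer to each other than the spread of either. Near to Fn1 lay Col6a3 (0.054) and Vars2 (0.061). Nearest to Tnc were Adgra2 (0.064), Slc1a5 (0.068) and 2310022B05Rik (0.068). Nearest to Thbs2 were Sema3c (0.043), Zeb1 (0.048) and Kat2b (0.058), and to Thbs3 Sema3a (0.082), Rhou (0.093) and Arl5a (0.099). The flat profiles of Thbs1 and Sparc lay nearest to Trim3 (0.025), Ston1 (0.029) and Aak1 (0.038), and to Spats2 (0.026), Ik (0.031) and Tmem181a (0.032). Postn had no neighbour nearer than Egfr (0.12), Meg3 (0.12) and Dnm3os (0.13).

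The closest relatives of the 7 genes were read from a list of 22, of which 17 were tested. Like the other gene lists below, it was chosen with earlier results of these data known. In it 7 rose and 1 fell, where 18.0% of all tested genes were called higher and 16.5% lower. The median change was 0.12 beside 0.0049 over all tested genes. The 3 rises named by rule were in the CCN family of matricellular proteins, whose members bind integrins and growth factors. Ccn2 (connective tissue growth factor) rose by 1.04 (SE 0.18, limma-trend adjusted p = 0.0011), Ccn4 by 0.64 (SE 0.09, adjusted p = 0.00034) and Ccn1 by 0.54 (SE 0.099, adjusted p = 0.0015). The fall was in Smoc1, a SPARC-related calcium-binding protein, at -0.53 (SE 0.16, limma-trend adjusted p = 0.025). Below the 3 named rises, Spp1 (osteopontin), Tgfbi (the paralog of Postn), Fstl1 (a distant relative of Sparc) and Ecm1 rose by 0.25 to 0.54. The pentameric thrombospondins that accompany Thbs3 are given for their kinship, outside the rule for named genes. Thbs4 had a change of -0.11 (limma-trend adjusted p = 0.71), and Comp one of -0.35 (adjusted p = 0.06, and 3.5e-05 in the blocked fit). The other tested CCN genes, also outside that rule, did not pass the test. Ccn5 had a change of 0.12 (limma-trend adjusted p = 0.16, but 4.1e-07 with the block and GC and length correction). Ccn3 had a change of -0.29 (limma-trend adjusted p = 0.36, but 2.1e-05 once blocked by replicate number). With the block, 8 relatives were higher and 3 lower (Smoc1, Comp and Ccn3), where 23.3% of all tested genes were higher and 22.7% lower.

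Receptors and adaptors on the cell side of fibronectin went both ways. Of 17 tested genes 5 rose and 4 fell, with a median of 0.07, where 18.0% of all tested genes were called higher and 16.5% lower. Itgb1, the beta chain shared by several fibronectin-binding integrins, rose by 0.44 (SE 0.075, limma-trend adjusted p = 0.001), and Itgav, an alpha chain that binds fibronectin and vitronectin, fell by 0.32 (SE 0.063, adjusted p = 0.0021). Itga5, the partner of Itgb1 in the main fibronectin receptor and outside the rule for named genes, had a change of 0.07 (limma-trend adjusted p = 0.69, but 0.003 with the block and GC and length correction). Sdc4, the syndecan that acts beside it at focal adhesions, rose by 0.51 (SE 0.11, adjusted p = 0.0044), and Fermt2 (kindlin-2), an integrin activator, by 0.43 (SE 0.1, adjusted p = 0.0066). Tns1 (tensin 1), which carries integrins along forming fibrils, fell by 0.53 (SE 0.093, limma-trend adjusted p = 0.0011). Tln1 (talin 1) fell by 0.23 (adjusted p = 0.021), a call that ended with the block and GC and length correction (adjusted p = 0.2). The other 3 called genes were Sdc1 and Itgb8, which rose, and Itgb3, which fell, and they are named outside the rule. The call of Itgb8 also ended with the block and that correction (adjusted p = 0.038 before and 0.058 after).

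Of the 9 receptors and partners of thrombospondins and SPARC, 1 rose and 4 fell, with a median of -0.11. Over all tested genes 18.0% were called higher and 16.5% lower. Stab1 (stabilin 1), a scavenger receptor of macrophages and sinusoidal endothelium that takes up SPARC, fell by 1.43 (SE 0.27, limma-trend adjusted p = 0.0018). Of the 11 macrophage and other blood markers 1 was lower and 1 higher in the same fit. With the replicate block 7 of these markers were lower and 1 higher, where 22.7% of all tested genes were lower and 23.3% higher. The part of these markers in the fall of Stab1 was not tested. Lrp1, the endocytic receptor that clears thrombospondins, fell by 0.56 (SE 0.1, adjusted p = 0.0017), Tgfb1, the latent ligand that thrombospondin 1 can activate, by 0.46 (SE 0.13, adjusted p = 0.013), and Cd47 by 0.31 (SE 0.064, adjusted p = 0.0033). Cacna2d1, a calcium channel subunit and neuronal thrombospondin receptor, rose by 0.27 (adjusted p = 0.036), which ended with the block and GC and length correction (adjusted p = 0.41). With the replicate block 3 of the 9 receptors and partners were higher and 4 lower, beside 23.3% and 22.7% of all tested genes.

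**Figure D5:**
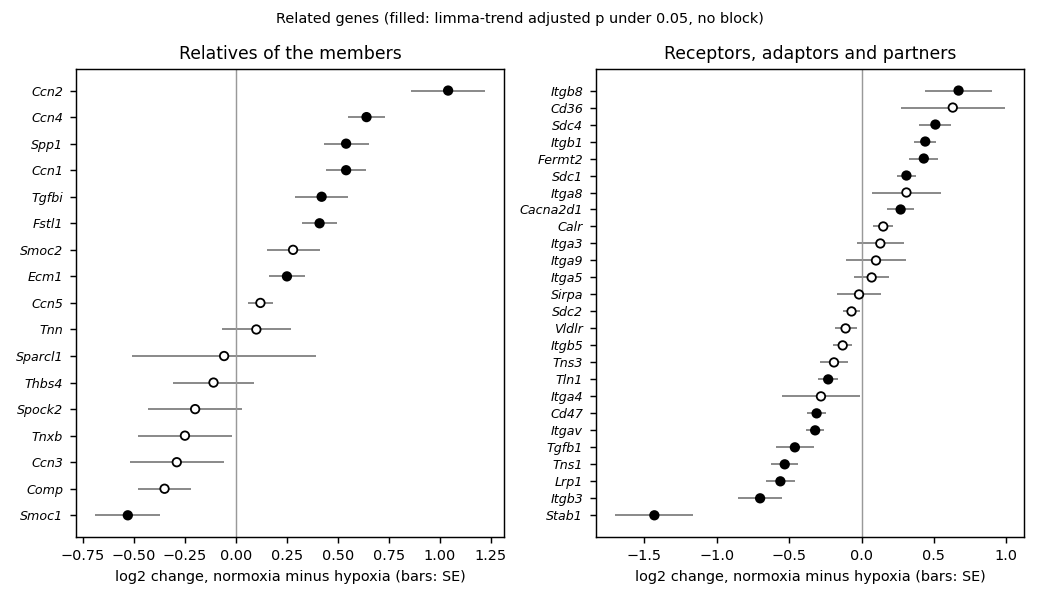
Log2 change (normoxia minus hypoxia, horizontal axis) with its SE for the tested relatives of the 7 genes (left) and for receptors, adaptors and partners (right), ordered by change. Filled points passed a limma-trend adjusted p-value of 0.05 without block and open points did not. Ccn2, at 1.04, and Stab1, at -1.43, are the ends of the lists.

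The enzymes that add sugars to thrombospondin type 1 repeats and the proteases that process these proteins are listed last, with shares of called genes not above the 34.6% of all tested genes. Of the 5 tested glycosylation genes 0 rose and 1 fell, Dpy19l3, a mannosyltransferase for tryptophan in these repeats, by 0.21 (SE 0.061, limma-trend adjusted p = 0.02). Of 6 proteases Htra1, a secreted serine protease that cleaves fibronectin, rose by 0.22 (SE 0.072, adjusted p = 0.03), and Furin, a proprotein convertase, fell by 0.23 (SE 0.066, limma-trend adjusted p = 0.019). The call of Furin ended with the block and GC and length correction (adjusted p = 0.07).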

How the data were processed

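RNA-seq was performed on 4 hypoxia and 4 normoxia samples. The authors mapped single-end reads to mm10 with STAR and counted them with featureCounts inside zUMIs, using samtools, with Ensembl annotation, and deposited raw counts per gene, which are whole numbers and not normalized. Strand, introns and reads mapping to several places are not stated for the counting. Symbols, positions and lengths came from GENCODE M21 (GRCm38), and 53360 of 53465 identifiers had a symbol. Identifiers without one held 0.00364% of the counts.

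The members and gene lists were chosen with earlier results of these data known. After the study's methods, genes were kept by filterByExpr of edgeR 4.0.16 with a minimum count of 5, leaving 14369 genes with 99.9% of the counts. Values were TMM-scaled log2 CPM with a prior count of 3, tested with limma-trend (limma 3.58.1, R 4.3.3) at a threshold of 0.05 on p-values adjusted by Benjamini-Hochberg over all tested genes. Alternatives were a replicate block, a GC and length correction by natural splines with 5 degrees of freedom each, both together, the edgeR quasi-likelihood test, DESeq2 1.42.0, limma-voom, other normalizations, no filter, a prior count of 0.5, and leaving out each sample. Ratios between members had 0.5 added to each count.

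Genes were named as members, as the 3 largest rises and 3 largest falls of each list among called genes whose mean log2 CPM reached 3, and as the 3 nearest profiles of each member, of which 1 is not reported here. Deviations of same-numbered samples from their group means correlated across genes at r = 0.47, 0.28, 0.25 and 0.17 for replicates 1 to 4, and the study describes dividing a sorted population, so the numbers were taken to pair the samples. The labels can also be read as culture at either oxygen level before the sort, and they do not state a pairing.

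The method was tested on simulated counts for normoxia against hypoxia, in which 198 of 14400 tested genes had a true log2 change of 1. Of these, 90.9% were recovered by limma-trend, with 0.552% of its calls false, and with the replicate block 91.4%, with 3.72% false. In the data the largest change among the members was smaller in size, at -0.80 for Tnc in limma-trend without block. That fit called 34.6% of all tested genes. Recovery of smaller changes, such as 0.32 for Thbs2, and the false share where so many genes are called were not tested. At the depths given, 3 counts correspond to 0.119 to 0.233 CPM, which covers counting error only. No sample was left out. Intervals are at the 95% level. Promoter windows came from RefSeq (GRCm38.p6).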

Additional observations from a re-analysis of the deposited data

How the results depend on the processing

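Of the 7 genes, 3 were called. The count was 4 with the replicate block, 6 with the replicate block and GC and length correction together (2 higher and 4 lower, in place of 1 and 2), and 2 without a filter on low counts, where 1 was lower because Fn1 had an adjusted p of 0.13. It was 3 with the edgeR quasi-likelihood test, DESeq2, limma-voom, RLE size factors, library totals, the 20 most counted genes left out of the scaling, a prior count of 0.5, or GC and length correction alone. Without each sample in turn 2 to 3 genes were called, 0 to 1 higher and 2 to 3 lower. Over all 19 alternatives Tnc passed in 19, Fn1 in 18, Thbs2 in 14, Thbs3 in 3, Sparc and Postn in 1 each and Thbs1 in 0.

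Changes of sign were seen for Postn, which ranged from -0.31 to 0.052 without each sample in turn (0.052 without hypoxia replicate 2), and for the Thbs1 to Sparc ratio, which ranged from -0.093 to 0.067. That ratio was above 0 without hypoxia replicates 1 and 2 (0.022 and 0.067) and without normoxia replicates 1, 3 and 4 (0.01, 0.018 and 0.0022). The cause of these differences was not tested. With the numbers as pairs, an exact sign-flip test of a ratio cannot reach 0.05 with 4 pairs. With the block and GC and length correction, 10 relatives of the members were higher and 3 lower, 6 and 6 fibronectin receptors and adaptors, 2 and 5 thrombospondin and SPARC partners, 1 and 1 glycosylation genes, and 2 and 0 proteases. In that fit 21.7% of all tested genes were higher and 21.5% lower. The shallowest member was Thbs3, with 176 to 491 counts per sample.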

Other observations

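The error of the Fn1 change differed between tests. In limma-trend it is not set by the values of Fn1 alone, since the variance is drawn towards that of genes of similar level. The SE on the log2 scale was 0.14 in limma-trend (adjusted p = 0.0078), 0.072 in limma-voom (adjusted p = 0.00021) and 0.075 in DESeq2 (adjusted p = 1.7e-13). Without a filter on low counts it was 0.25 in limma-trend (adjusted p = 0.13), and the change was -0.59 with and without the filter. The within-group SD of Fn1 on the log2 scale was 0.099, below the median of 0.16 over all tested genes.

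Correction for GC content and length moved Postn the most of the 7 genes: it removed 0.25 from its log2 change, against -0.086 for Fn1, -0.074 for Thbs3, -0.072 for Sparc, 0.061 for Thbs2, -0.052 for Tnc and 0.024 for Thbs1. The GC content of the other 6 genes lay between 48.4% and 54.0%, near the median of 49.7%, and that of Postn was 36.3%.

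A search of 56 sets of 4 values, the levels and ratios of the 7 genes in each group, for a highest or lowest sample set apart from the rest found 0, where chance would give about 2.8.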
